A study of Solanum lycopersicum with 4 samples.

Results

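The genes described here are 4 of the Aux/IAA family, IAA3, IAA7, IAA16 and IAA17, and 1 gene for an auxin response factor, ARF3. These 5 genes were selected by symbol or synonym in the platform annotation of 2007 and in RefSeq (SLM_r2.1), and each has 2 probe sets, which makes 10 probe sets of the 10101 analysed and 5 of the 803 genes that the annotation pairs with a probe set. Expression in pericarp, the fleshy wall of the fruit, was measured in Solanum lycopersicum variety Moneymaker on 4 GeneChip arrays, 1 for each genotype and stage. AtJUB1-OX fruits carry 35S:AtJUB1-GFP, an Arabidopsis NAC transcription factor fused to GFP behind a viral promoter that is active in most plant tissues, and wild type fruits (WT) carry no construct. In the study's text the name AtJUB1-OX stands for 1 transgenic line. Both genotypes were sampled at B+7, which is 7 days after the breaker stage when colour first shows, and at mature green (MG), the full-size fruit before ripening. As each condition has a single array, nothing could be tested and the spread between fruits is not known.

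Auxin acts by removing repressors. Aux/IAA proteins bind auxin response factors (ARFs) and silence the genes that these occupy, and auxin joins Aux/IAA proteins to TIR1/AFB receptors, which marks them for degradation. Many Aux/IAA genes are themselves induced by auxin, so the pathway makes its own brake. In tomato, auxin drives fruit set and growth, and its level is low when ripening begins. Tomato IAA3 is known as a gene that responds to both auxin and ethylene, and lowering IAA17 in tomato gives larger fruits. ARF3 encodes a factor that in Arabidopsis lacks the C-terminal domain through which other ARFs meet Aux/IAA proteins.

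At MG IAA17 was 4.70-fold higher in AtJUB1-OX than in WT, and at B+7 it was among the low signals of the array in both genotypes. IAA3 had a 2.01-fold higher signal in AtJUB1-OX at MG and almost the same signal in both genotypes at B+7. IAA16 was lower at B+7 than at MG in both genotypes, by 3.67-fold in AtJUB1-OX and 4.03-fold in WT, from low signals. ARF3 varied little, and IAA7 stayed near background on every array. All signals are the log2 values deposited by the authors, on which a difference of 1 is a 2-fold difference, and the brightest probe set stands for a gene. Probe sets are told apart by the letters A1 and S1 in their IDs, whose meaning is not given in the sources used here.

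**Figure D1:**
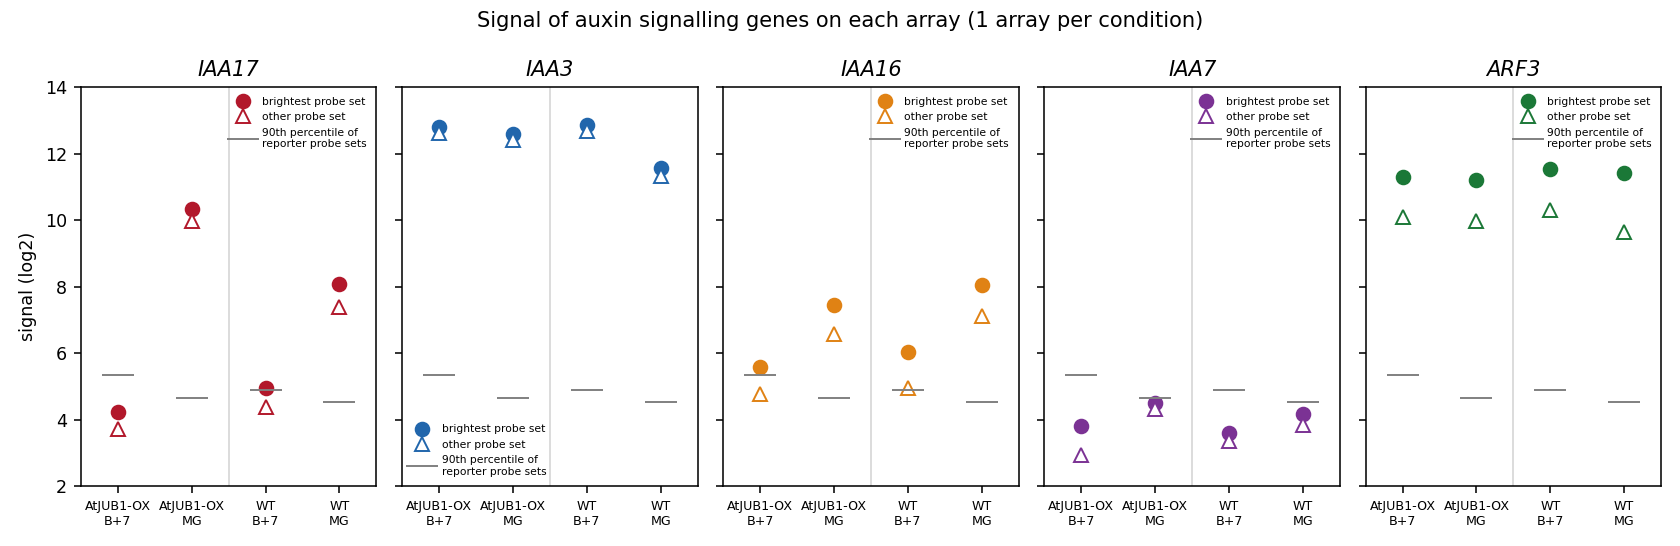
Signal on the log2 scale (y) of both probe sets of each gene on each of the 4 arrays (x, AtJUB1-OX left of wild type). Filled circles are the brightest probe set of a gene, open triangles the other, and grey bars the 90th percentile of the 63 reporter probe sets on that array. The brightest IAA17 probe set spans 4.22 to 10.33, whereas that of ARF3 spans 11.21 to 11.55.

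The brightest IAA17 probe set (A1) had signals of 4.22 at B+7 and 10.33 at MG in AtJUB1-OX, against 4.96 at B+7 and 8.10 at MG in WT. The other one (S1) had 3.72 and 9.98 at these stages in AtJUB1-OX, against 4.38 and 7.38 in WT. Both put the AtJUB1-OX array at MG first, the WT array at MG second, and both B+7 arrays far below. At MG the difference between AtJUB1-OX and WT was 2.23, a 4.70-fold higher signal, by the brightest probe set and 2.60, or 6.05-fold, by the other. Of all 10101 probe sets, 72 had a difference at least as large in that direction as the brightest one. The 2 estimates lay 0.36 apart. In pericarp RNA, fewer cells with IAA17 transcripts and fewer transcripts in each cell cannot be told apart, which holds for every gene here.

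IAA3 is a bright gene on these arrays, with signals for the brightest probe set (S1) of 12.80 at B+7 and 12.59 at MG in AtJUB1-OX, against 12.88 at B+7 and 11.58 at MG in WT. Its other probe set (A1) gave 12.62 and 12.41 in AtJUB1-OX, against 12.68 and 11.34 in WT. Only the WT array at MG was low, while the other 3 lay within 0.29 of each other. The MG difference was 1.01 by the brightest probe set and 1.07 by the other. Among all probe sets, 307 had a difference at least as large in that direction. The higher IAA3 signal in AtJUB1-OX at MG and its higher signal at B+7 than at MG in WT both rest on that WT array, so they are not separate observations. Both IAA3 probe sets belong to the 40 probe sets of the array whose WT signal at MG was at least 2-fold below each of the other 3 arrays while those lay within 1.5-fold of each other. By the same measure the AtJUB1-OX array at MG stood alone and higher in 33 probe sets, none of them a member. These counts were chosen after the IAA3 values were seen.

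IAA16 had signals for the brightest probe set (A1) of 5.58 at B+7 and 7.46 at MG in AtJUB1-OX, against 6.04 at B+7 and 8.05 at MG in WT. Its S1 probe set gave 4.78 and 6.59 in AtJUB1-OX, against 4.96 and 7.13 in WT. At each stage the AtJUB1-OX value was the lower one in both probe sets. The MG difference was -0.59, or 1.51-fold lower, by the brightest probe set and -0.54 by the other, so 1 of them lies just beyond a 1.5-fold difference (0.58 on the log2 scale) and 1 just inside it.

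ARF3 had signals for the brightest of its probe sets, both A1, of 11.30 at B+7 and 11.21 at MG in AtJUB1-OX, against 11.55 at B+7 and 11.43 at MG in WT. By this probe set AtJUB1-OX was lower at both stages, by -0.26 at B+7 and -0.23 at MG. The other probe set gave 10.10 and 9.98 in AtJUB1-OX, against 10.32 and 9.66 in WT. Its B+7 difference was -0.22, but at MG it pointed the other way, with 0.32. The direction for ARF3 at MG therefore differs between its 2 probe sets, and the only ARF among the members has no settled difference at that stage.

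IAA7 gave signals for the brightest probe set (A1) of 3.80 at B+7 and 4.49 at MG in AtJUB1-OX, against 3.60 at B+7 and 4.17 at MG in WT. Its S1 probe set gave 2.95 and 4.34 in AtJUB1-OX, against 3.36 and 3.83 in WT. The genotype difference at B+7 was 0.21 by the first and -0.41 by the second, and at MG it was 0.32 and 0.51. The array carries 63 reporter probe sets, which target sequences common in transgenes and not tomato genes. Their median was between 3.36 and 3.66 on the 4 arrays. Between 9 and 31 of them were brighter than the brightest IAA7 probe set, depending on the array. The differences of IAA7 thus come from signals that such probe sets also reach. AtJUB1-OX fruits carry a construct with GFP, and whether any reporter probe set detects it was not tested. The reporters are therefore not known to be a neutral background on the AtJUB1-OX arrays. On both of these arrays 1 reporter was brighter than the brightest ARF3 probe set, against 0 on both WT arrays. Their 90th percentile at B+7 was 5.36 in AtJUB1-OX and 4.89 in WT.

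At the 1.5-fold cut-off that the study used, 2 of 5 member genes, IAA17 and IAA3, had the higher signal in AtJUB1-OX at MG. Both also passed 2-fold, but IAA3 only just (1.006), and with quantile normalization it did not (0.99). Of all probe sets, 6.67% were at least 1.5-fold higher and 3.07% at least 2-fold higher in that comparison. IAA16 was the 1 member lower at MG, where 6.74% of all probe sets were lower. At B+7 no member was at least 1.5-fold higher, against 3.53% of all probe sets, and IAA17 was the 1 member lower (-0.74), against 6.13%. The median difference of the members was -0.26 at B+7 and 0.32 at MG, and that of all probe sets was 0.00 at B+7 and -0.05 at MG. Each member median is the value of 1 gene, ARF3 at B+7 and IAA7 at MG, and IAA7 was near background. The medians therefore show no shift of the members as a group. With 5 genes these counts describe the members and no more.

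**Figure D2:**
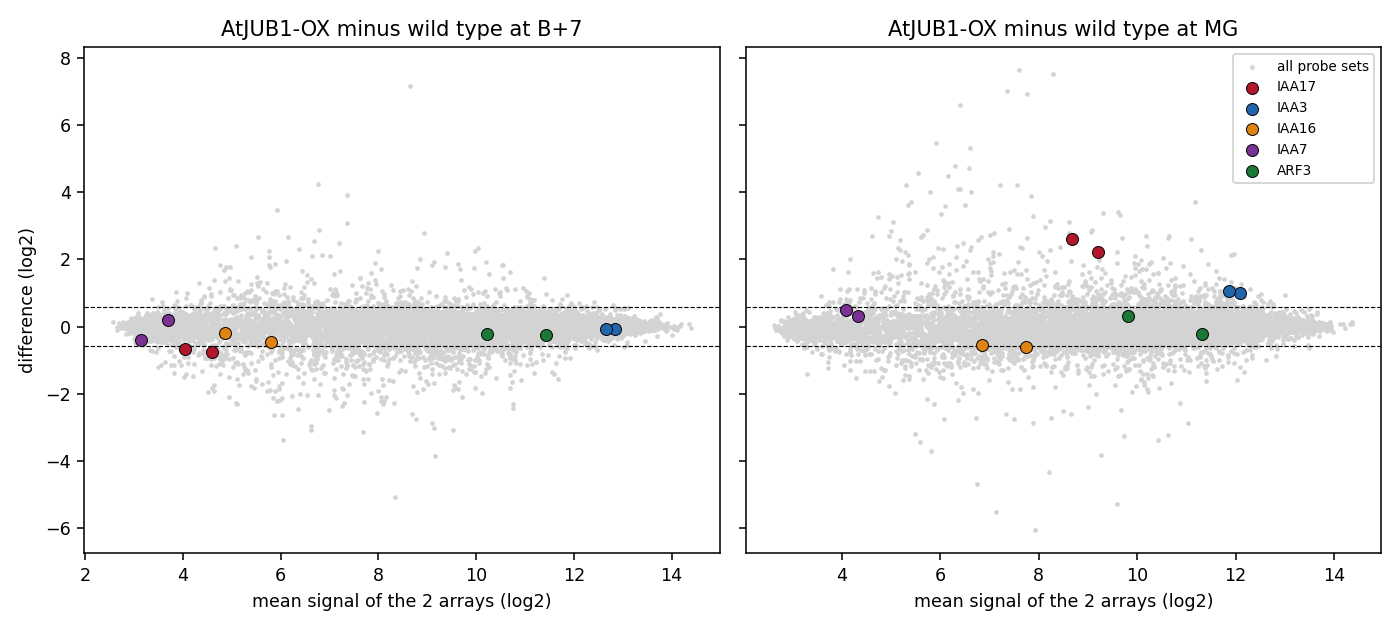
Difference between AtJUB1-OX and wild type on the log2 scale (y) at B+7 (left) and MG (right) against the mean log2 signal of both arrays (x), with every probe set in grey, both probe sets of each member in colour and dashed lines at 1.5-fold. At MG the 4 probe sets of IAA17 and IAA3 lie above the upper line, between 1.01 and 2.60.

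The lower IAA17 signal at B+7 in AtJUB1-OX had both probe sets in the same direction, -0.74 and -0.65. However, 15 of 63 reporter probe sets in AtJUB1-OX and 6 of 63 in WT were brighter than the brightest IAA17 probe set at B+7. At MG only 1 of 63 was brighter in AtJUB1-OX and 0 of 63 in WT. With all signals below the 25th percentile (7.34) raised to it, the B+7 difference became 0.00, as both arrays then stand at the floor, and the MG difference remained 2.23. The genotype difference at MG minus that at B+7 was 2.98 by the brightest probe set and 3.25 by the other. Of all probe sets, 1.06% had, like IAA17, a higher signal in AtJUB1-OX at MG and a lower one at B+7, each past 1.5-fold.

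From MG to B+7, 3 of 5 members were at least 1.5-fold lower in AtJUB1-OX, IAA17, IAA16 and IAA7, where 16.8% of all probe sets were lower, and 0 were higher, against 19.1% of all probe sets. In WT, IAA17 and IAA16 were lower, against 14.2% of all probe sets, and IAA3 was higher, against 13.9%. IAA17 differed between stages by -6.11 in AtJUB1-OX and -3.13 in WT. Its second probe set gave -6.25 and -3.00. The gap between the genotypes in this change is the same contrast as the 2.98 given above, so it is not a separate observation. The AtJUB1-OX decrease and the MG difference between genotypes also share the AtJUB1-OX array at MG. At least as large a decrease was found for 14 of 10101 probe sets in AtJUB1-OX and for 114 in WT. Since the B+7 signals lie among those of the reporters, the size of these differences depends on how the lowest signals are scaled, and with the floor they were -2.99 in AtJUB1-OX and -0.76 in WT, the latter smaller than the 1.29 of IAA3 in WT.

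The decrease of IAA16 was -1.87 in AtJUB1-OX and -2.01 in WT by the brightest probe set, and -1.81 and -2.17 by the other. At B+7, 6 of 63 reporter probe sets in AtJUB1-OX and 2 of 63 in WT were brighter than the brightest IAA16 probe set. With the floor the IAA16 differences became -0.12 in AtJUB1-OX, no longer past 1.5-fold, and -0.71 in WT. Both B+7 values then stand at the floor, so these differences follow from the MG values alone. They cannot show whether the 2 genotypes decrease alike. IAA3 had a higher signal at B+7, by 0.21 in AtJUB1-OX and 1.29 in WT, with 0.21 and 1.34 by its other probe set. For ARF3 the brightest probe set differed by 0.09 in AtJUB1-OX and 0.12 in WT, while the other gave 0.12 and 0.67, the WT value being past 1.5-fold. IAA7 differed by -0.69 in AtJUB1-OX and -0.57 in WT, again between signals near background.

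**Figure D3:**
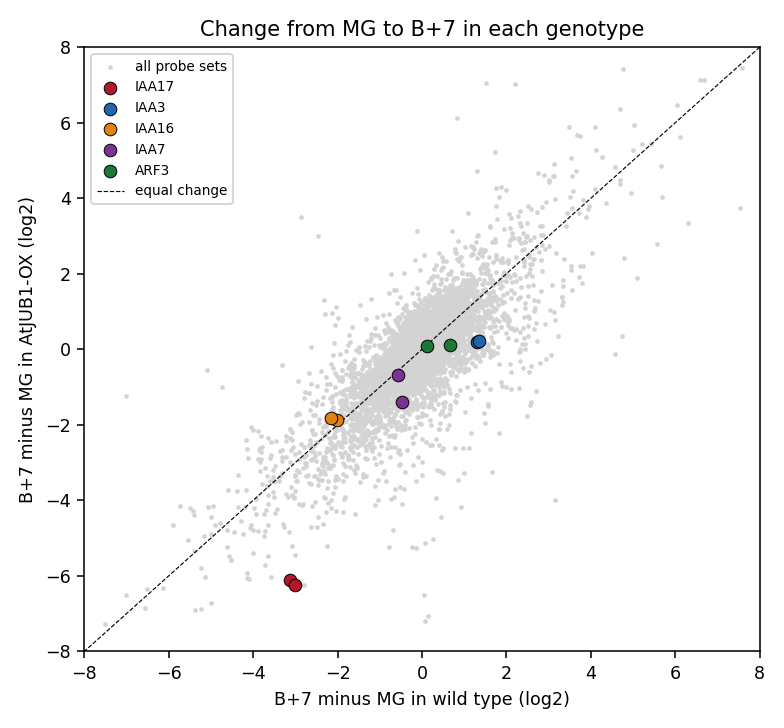
Change on the log2 scale from MG to B+7 in AtJUB1-OX (y) against that in wild type (x), with every probe set in grey, both probe sets of each member in colour and the dashed line where both genotypes change equally; 5 probe sets lie outside the axes. IAA16 lies near the line (-1.87 against -2.01, and -0.12 against -0.71 with the floor), and IAA17 and IAA3 lie below it, IAA17 near -6.11 against -3.13 and IAA3 near 0.21 against 1.29.

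The agreement of probe sets gives the technical spread that can be had without replicates, and it leaves out the spread between fruits and whatever errors a whole array shares. For 35 genes with at least 2 probe sets of above-median signal, the SD within a gene, pooled over genes, was 0.10 at B+7 and 0.16 at MG for the difference between genotypes. For 41 genes with at least 2 dimmer probe sets it was 0.32 and 0.28. The IAA3 difference at MG exceeds the first several times over, and the IAA17 difference at MG exceeds the second. The MG differences of IAA16 (-0.59 and -0.54) and IAA7 (0.32 and 0.51) stand beside the 0.28 of dimmer genes at that stage. The ARF3 differences at B+7, -0.26 and -0.22, exceed the 0.10 of bright genes at that stage. However, 17.1% and 19.8% of all probe sets had at least as large a difference in that direction at B+7. The members are among the genes behind these SDs.

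Other genes of the auxin pathway list with a probe set were IAA27, IAA2, ERABP1 and ARPI. IAA27, another Aux/IAA gene whose silencing alters tomato fruit, had signals of 9.92 at B+7 and 11.71 at MG in AtJUB1-OX, against 10.02 at B+7 and 11.93 at MG in WT. Its genotype differences were -0.10 at B+7 and -0.21 at MG, and its decrease from MG to B+7 was -1.79 in AtJUB1-OX and -1.91 in WT. All 4 IAA27 signals lie above the floor of 7.34. ERABP1, which by its symbol encodes an auxin-binding protein of the endoplasmic reticulum, differed between genotypes by 0.09 at B+7 and -0.10 at MG. IAA2, whose gene ID in the annotation was not matched in RefSeq, had signals between 3.89 and 4.06 on the 4 arrays, near the reporters. ARPI was also dim, with 3.89 at B+7 and 4.40 at MG in AtJUB1-OX, against 4.74 at B+7 and 4.21 at MG in WT, and was the only one of these genes past 1.5-fold between genotypes, with -0.85 at B+7. LOC543517, which carries the synonym LeARF1, was also matched by name (-0.03 at B+7 and -0.34 at MG). RefSeq holds the auxin response factor gene SlARF1 as a different entry, so LOC543517 was not read as an auxin gene.

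The RefSeq table lists 18 genes with an IAA symbol and 22 with an ARF symbol, of which 5 and 1 are paired with a probe set. The values therefore cover a small share of both families, and no GH3, SAUR, PIN or TIR1 gene was analysed here. In that table only 1 gene lies between IAA7 and IAA4, which is not paired with a probe set.

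Among 470 or 471 named genes with above-median signal, those with the nearest pattern over the 4 arrays were found by the Euclidean distance of log2 values after each gene's mean was subtracted. For IAA3 these were XTH3, a xyloglucan endotransglucosylase gene (distance 0.21), and the MAP kinase gene MPK3 (0.27), while IAA3 itself lay 1.04 from a flat pattern. XTH3 differed between genotypes by -0.16 at B+7 and 1.11 at MG, and MPK3 by -0.33 and 1.11, so both also had their low value on the WT array at MG. IAA16 was nearest to LOC543517 (0.35) and to IAA27 (0.38), with 2.01 from a flat pattern. For IAA17 the distances were larger, but so was its pattern, which was 4.91 from a flat one. IAA17 is itself dimmer than the median on average, so genes of its own signal range were not searched. The nearest to IAA17 were GP1 (1.59) and LOX1.1, a lipoxygenase gene (2.0). Their genotype differences were -0.99 and -0.83 at B+7, and 0.08 and -0.38 at MG. GP1 thus had the signs of IAA17, and LOX1.1 did not. The genes of rank 3 to 5 also had these signs. TGAS118 (2.18) differed by -1.97 at B+7 and 0.30 at MG, and XTH16 (2.34) by -0.34 and 0.59. TLRP, which encodes a cell wall protein, lay between them (2.20), with genotype differences of -1.29 at B+7 and 3.71 at MG. The genes of rank 3 to 5 were picked with their values in view. For ARF3 these were TCTR2 (0.09) and MCA1 (0.10), beside 0.26 from a flat pattern, and for IAA7 copz2 (0.16) and LOC543645 (0.19), beside 0.69. A likeness over 4 arrays is a description of these arrays.

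Some properties of the arrays moved with the comparisons. The 3' minus 5' signal of 4 control transcripts, which grows as RNA degrades, was larger in AtJUB1-OX than in WT at MG by 0.13 to 0.53, and at B+7 the difference was between -0.10 and 0.04. Ribosomal RNA controls differed at B+7, with AtJUB1-OX minus WT values of 1.20 for 25S and 0.48 for 17S. They also differed between stages, B+7 minus MG being 1.76 for 25S and 1.39 for 17S in AtJUB1-OX, against 0.44 and 0.84 in WT. The 3' minus 5' signal was lower at B+7 than at MG for all 4 transcripts in AtJUB1-OX, with differences between -0.95 (EF1a) and -0.05 (GAPDH), which ranged from -0.46 to 0.08 in WT. From MG to B+7 the median of 21 spike controls was higher by 0.19 in AtJUB1-OX and 0.21 in WT. Their part in the IAA17, IAA3, IAA16 and IAA7 differences, between genotypes or stages, was not tested. As a check of tissue and stage, all 8 ripening genes listed were higher at B+7 than at MG in both genotypes. RIN, PG2, E8 and Psy1 were among them. All 5 genes of green tissue, PsbQ among them, were lower at B+7. At MG these genes also differed between genotypes. E8 had 6.95 in AtJUB1-OX and 12.23 in WT, loxC 4.89 and 10.96, and EXP1 6.05 and 10.39. RIN, TDR4, Psy1 and all 5 green genes were also lower in AtJUB1-OX. In contrast, PG2 (6.32 against 3.98) and ACS2 (8.25 against 7.10) were higher. The part of these differences in those of IAA17 and IAA3 at MG was not tested.

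**Figure D4:**
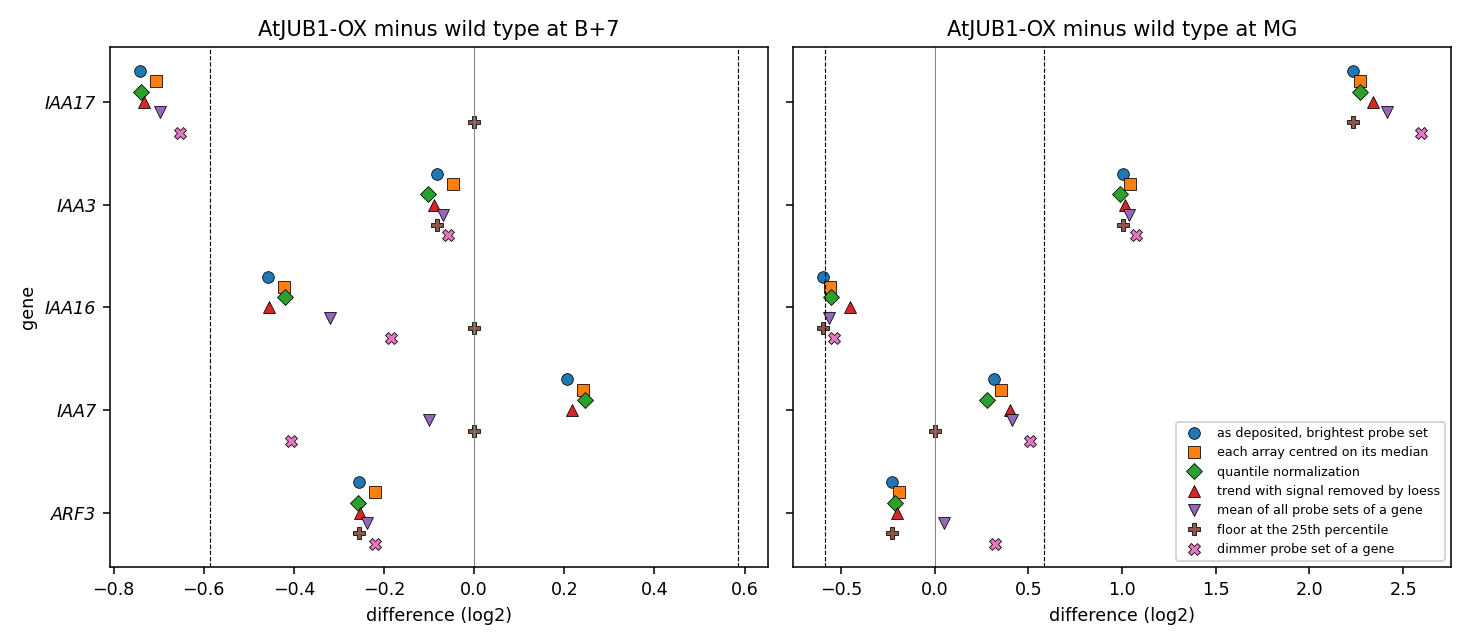
Difference between AtJUB1-OX and wild type on the log2 scale (x) for each gene (y) at B+7 (left) and MG (right) under 7 ways of processing the signals, each with its own symbol, and dashed lines at 1.5-fold. At MG, IAA17 lies between 2.23 and 2.60 and IAA3 between 0.99 and 1.07, while IAA16 straddles the line, between -0.59 and -0.45.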

How the data were processed

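RNA from pericarp of both genotypes was run on Affymetrix tomato GeneChips, 1 for each genotype and stage, and conditions were taken from the sample labels. The values deposited by the authors are log2 expression per probe set, after background correction, normalization and summary. GCRMA and RMA appear in the submitters' processing notes, without role or order. Of 10209 probe sets, 108 controls were left out. Gene names came from the platform annotation (909 probe sets) and RefSeq SLM_r2.1, which matched 885 and was used for names and gene order alone.

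Differences are AtJUB1-OX minus wild type and B+7 minus MG, counted at 1.5-fold, with no test. The brightest probe set stands for a gene. The genes shown are every probe set of the 5 members, the auxin list matched by symbol and the 2 nearest patterns per member. Members and lists were chosen with earlier results of these data known. Alternatives were median centring, quantile normalization, loess (span 0.3), the mean of a gene's probe sets, a floor at the 25th percentile and a 2-fold cut-off. The dimmer probe set was added as an alternative after the data were seen. Counting was tested on simulated data. Sequences of the members were not used here. Python 3.11.15 (numpy 2.4.6, pandas 2.3.3, matplotlib 3.10.9) and R 4.3.3 with limma 3.58.1 were used.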

Additional observations from a re-analysis of the deposited data

Results flagged for a closer look

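By the brightest probe sets, the difference between AtJUB1-OX and WT had opposite signs at the 2 stages for 2 genes, IAA17 and IAA3. In neither case was the change of sign tested, as there is 1 array per condition. The other probe sets of IAA7 (-0.41 at B+7 and 0.51 at MG) and ARF3 (-0.22 and 0.32) also changed sign. IAA17 was lower in AtJUB1-OX at B+7 (-0.742) and higher at MG (2.23). A difference past 1.5-fold in both of these directions was found for 1.06% of all probe sets. The B+7 signals of IAA17 lie among those of the reporters, and with the floor its B+7 difference was 0.00. IAA3 differed by -0.082 at B+7 and by 1.01 at MG, so its opposite sign at B+7 is a difference smaller than the 0.10 SD between bright probe sets of the same gene at that stage.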

How the results depend on the processing

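Of 20 member differences, 14 stayed on the same side of 1.5-fold in all 6 alternatives applied to single differences. These include the dimmer probe set and leave out the 2-fold cut-off. With the floor, the count of members past 1.5-fold was 0 at B+7 between genotypes and 1 from MG to B+7 in AtJUB1-OX, against 1 and 3, because signals under 7.34 are set equal. The calls lost are IAA17 (0.00) at B+7, and IAA16 (-0.12) and IAA7 (0.00) between stages in AtJUB1-OX. At a 2-fold cut-off the B+7 count was 0. The MG call of IAA16 was lost with centring (-0.56), quantile normalization (-0.55), loess (-0.45), the mean of its probe sets (-0.57) and the dimmer probe set (-0.54). The decrease of IAA7 from MG to B+7 in WT (-0.57) passed 1.5-fold with centring (-0.59), quantile normalization (-0.65) and loess (-0.69). The ARF3 change in WT passed it by the dimmer probe set (0.67). No called difference changed sign. No paired analysis was possible because there is 1 array per condition. The number of arrays limits the precision, and IAA7 at either stage and IAA17 at B+7 are limited by signals near the reporters. IAA16 at B+7 has signals under the floor of 7.34, but its brightest probe set lay above the 90th percentile of the reporters in both genotypes.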
